A study of Mus musculus with 24 samples.

Results

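The 871 genes described here lie on mouse chromosomes 10 (563 genes) and 18 (308 genes) and reached at least 1 CPM (read counts scaled to a common library size) in 3 of 24 libraries. In all, 12190 of the 31062 features in the count tables reached that level, and 2150 features were listed on these chromosomes (1541 and 609). Another 10 genes of these chromosomes, among them Ifngr1, Stat2, Cd74 and Hsp90b1, were set aside by name. The pair of chromosomes was chosen because most of its genes read lower in Ifngr1-KO than in sgNTC cells, so that difference is given as a description, without a test. Tests are given only for quantities the choice did not use, such as how far the difference between the lines changes with culture. At the edge of the choice, Akap12 (0.114 to 1.49 CPM over the libraries) and F830016B08Rik (0 to 6.82 CPM) had exactly 3 libraries at 1 CPM, whereas B4galnt1 (0 to 1.34 CPM) and Gm10269 (0.143 to 1.04 CPM) had 2 and were left out.

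Poly-A RNA was sequenced from a mouse ovarian cancer line, ID8 p53-/-, that lacks intact p53, which every group therefore shares. The groups crossed 2 derivatives (Ifngr1-KO, edited in Ifngr1, a chain of the receptor for interferon-gamma, and sgNTC, the control by its label), 2 cultures (adherent, or ULA, ultra-low attachment wells in which cells float) and 2 treatments (PBS, or 100 ng/ml of IFN-gamma, added 24 hours after seeding, with harvest at 48 hours). Each of the 8 groups had 3 libraries labelled as biological replicates, with 33494774 to 63154942 counts per library. Each genotype is represented by 1 line, so the edit and any other difference between the lines cannot be told apart, and dead cells were removed from ULA wells only, so detachment and that step cannot be told apart either. Ifngr1, which lies on chromosome 10, read 13.3 to 17.0 CPM in Ifngr1-KO and 31.7 to 48.1 CPM in sgNTC libraries without overlap; the tables do not show the edit itself. Of the epithelial and mesothelial markers 7 of 9 reached 1 CPM in 3 libraries, against 1 of 6 macrophage, 1 of 4 endothelial, 1 of 5 fibroblast and 1 of 3 erythroid markers. Summed over each list, epithelial and mesothelial markers stood at 1732 to 4349 CPM in Ifngr1-KO and 1849 to 2923 CPM in sgNTC libraries, and fibroblast markers at 3.56 to 24.2 and 19.8 to 59.1 CPM. Macrophage markers summed to 5.33 to 22.9 and 2.02 to 8.16 CPM, and endothelial markers to 0.453 to 2.38 and 0.465 to 5.48 CPM. Within the first list, Muc16 read 0 to 1.83 CPM in Ifngr1-KO and 14.4 to 36.2 CPM in sgNTC libraries. Upk3b read 0.102 to 0.616 and 1.29 to 8.37 CPM, while the ranges of the rest of that list overlapped between the lines. Adherent Ifngr1-KO PBS replicate 3 and ULA Ifngr1-KO IFN-gamma replicate 2 stood apart from the other libraries of their groups, and the results that rest on them are also given without them.

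Most genes are expressed from both copies of a chromosome, and messenger RNA from a chromosome tends to follow how many copies of it a cell holds. Cultured cancer lines often carry gains and losses of whole chromosomes. A chromosome carries genes of unrelated roles side by side, from housekeeping enzymes and ribosomal proteins to receptors and transcription factors, so its genes share a location more than a function. This is background; copy number was not measured here, and its part in the values below was not tested.

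The promoters of 4 genes on chromosome 10 are printed first because these genes behaved differently between the lines. Fuca2 and Atp2b1 read higher in Ifngr1-KO cells while their chromosome read lower, Soga3 was nearly absent from Ifngr1-KO cells, and Snx3 stayed close to the chromosome's median. Each run is 300 bases, from 250 before to 50 after the start of the gene in RefSeq on GRCm38.p6, written 5′ to 3′ on the plus strand, on which all of these genes lie. Capitals mark the dinucleotide CG, searched as the letters C then G, which reads the same on both strands. The windows are chr10:13500778-13501077 for Fuca2, chr10:98914392-98914691 for Atp2b1, chr10:29143746-29144045 for Soga3 and chr10:42501804-42502103 for Snx3.
Fuca2: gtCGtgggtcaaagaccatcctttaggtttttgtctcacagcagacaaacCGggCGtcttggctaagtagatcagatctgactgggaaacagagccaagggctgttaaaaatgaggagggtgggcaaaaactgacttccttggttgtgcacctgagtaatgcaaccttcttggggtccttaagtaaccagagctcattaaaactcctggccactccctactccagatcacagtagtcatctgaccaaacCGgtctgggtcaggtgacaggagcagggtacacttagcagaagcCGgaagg
Atp2b1: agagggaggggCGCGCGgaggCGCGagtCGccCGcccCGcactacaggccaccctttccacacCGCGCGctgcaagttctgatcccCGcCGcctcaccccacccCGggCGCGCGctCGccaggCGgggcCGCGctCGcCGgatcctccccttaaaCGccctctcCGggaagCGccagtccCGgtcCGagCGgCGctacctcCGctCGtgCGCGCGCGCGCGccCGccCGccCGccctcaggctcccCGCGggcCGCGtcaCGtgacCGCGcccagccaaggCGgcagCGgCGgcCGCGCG
Soga3: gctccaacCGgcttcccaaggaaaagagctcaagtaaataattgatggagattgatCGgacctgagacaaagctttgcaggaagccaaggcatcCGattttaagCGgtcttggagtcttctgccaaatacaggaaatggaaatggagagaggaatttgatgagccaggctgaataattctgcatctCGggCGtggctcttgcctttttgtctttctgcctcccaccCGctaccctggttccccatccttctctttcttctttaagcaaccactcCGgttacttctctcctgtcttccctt
Snx3: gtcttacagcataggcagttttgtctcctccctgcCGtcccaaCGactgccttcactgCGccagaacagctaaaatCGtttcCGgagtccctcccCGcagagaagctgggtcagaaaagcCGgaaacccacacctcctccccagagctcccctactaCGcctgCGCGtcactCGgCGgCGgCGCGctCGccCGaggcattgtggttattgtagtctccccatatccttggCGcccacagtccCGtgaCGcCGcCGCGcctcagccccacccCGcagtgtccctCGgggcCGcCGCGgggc

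The windows of Fuca2 and Atp2b1 hold 5 and 54 CG dinucleotides and 50.3% and 79.3% G or C, although both genes read higher in Ifngr1-KO cells. Soga3 has 8 and Snx3 28. Of 32851 such windows in the RefSeq table, 94.6% held at least 1 CG, with a median of 7 and a range of 0 to 67. RefSeq windows were matched for 462 of the 563 chromosome 10 genes and for none of the 308 on chromosome 18, so promoter content is described for chromosome 10 only. In those 462 windows the median was 24 CG, with a range of 0 to 54, and 99.8% held at least 1. Split into 3 classes of 154 genes from low to high CG count, 76.6%, 73.4% and 76.0% read lower in Ifngr1-KO cells in all 4 settings, and the class medians in adherent PBS cultures were -0.53, -0.48 and -0.50 on the log2 scale. In ULA cultures they were -0.46, -0.42 and -0.38 in PBS and -0.45, -0.37 and -0.36 in IFN-gamma, nearest to 0 in the class with the most CG dinucleotides. These values were not tested.

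Genes of both chromosomes read lower in Ifngr1-KO than in sgNTC cells in each of the 4 settings, a setting being 1 culture with 1 treatment. For chromosome 10 the median log2 fold change, Ifngr1-KO against sgNTC, was -0.50 in adherent PBS, -0.48 in adherent IFN-gamma, -0.42 in ULA PBS and -0.40 in ULA IFN-gamma cultures. For chromosome 18 the medians in the same order were -0.46, -0.51, -0.38 and -0.37. These equal 0.706, 0.715, 0.746 and 0.759 times the sgNTC level on chromosome 10, and 0.727, 0.703, 0.768 and 0.776 times on chromosome 18. Over all 14622 genes tested the medians were -0.01, -0.01, -0.02 and -0.03, while the genes of chromosomes 10 and 18 were shifted in each setting. Without both libraries that stood apart the medians were -0.51, -0.48, -0.42 and -0.40 on chromosome 10 and -0.45, -0.51, -0.38 and -0.40 on chromosome 18. In bulk libraries, a lower level in every cell and fewer cells that express a gene cannot be told apart.

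Chromosomes 1 and 8 came next, with medians down to -0.27, -0.27, -0.24 and -0.24, and the other 16 lay between -0.07 and 0.17 over the settings. On chromosome 1, 53.4% of 716 genes read lower in all 4 settings and on chromosome 8, 54.6% of 659, against 74.6% on chromosome 10 and 75% on chromosome 18. No test of these differences is given, because the pair was chosen from these values.

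**Figure D1:**
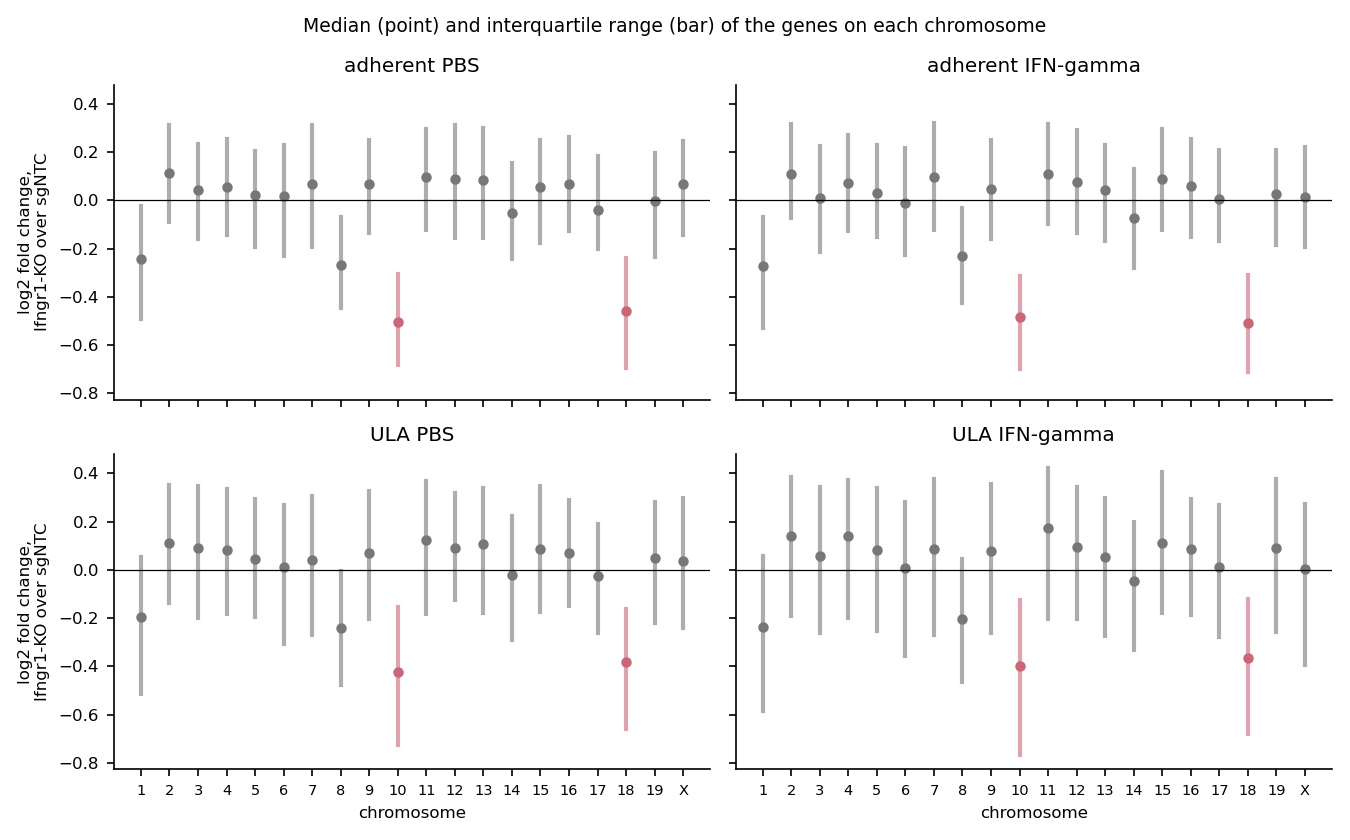
Median log2 fold change of Ifngr1-KO against sgNTC for the genes of each chromosome that reached 1 CPM in 3 libraries, in the 4 settings. Bars are interquartile ranges over genes. Chromosomes 10 and 18 have the lowest medians in every setting, from -0.51 to -0.37, followed by 1 and 8.

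The same shift was visible in every library. The chromosome 10 genes described here took 3.09% to 3.25% of the counts of each of the 12 Ifngr1-KO libraries and 4.23% to 4.43% of those of the 12 sgNTC libraries, without overlap. For the chromosome 18 genes the shares were 1.51% to 1.64% and 2.03% to 2.26%, again without overlap. Genes set aside by name or under the threshold are not in these shares. Set against the mean of the sgNTC libraries of the same setting, the median log2 ratio over chromosome 10 genes ran from -0.48 to -0.36 in single Ifngr1-KO libraries, and that over chromosome 18 genes from -0.50 to -0.31. The sgNTC libraries themselves lay between -0.01 and 0.02 and between -0.03 and 0.03. No library of either line, including those that stood apart, fell in the range of the other line. Between treatments the shares differed far less. With PBS and with IFN-gamma the chromosome 10 shares did not overlap in ULA sgNTC libraries, at 4.385% to 4.431% and 4.226% to 4.30%, or in adherent Ifngr1-KO libraries, at 3.085% to 3.094% and 3.099% to 3.104%. The chromosome 18 shares did not overlap in adherent libraries, at 2.201% to 2.214% and 2.219% to 2.256% in sgNTC and 1.638% to 1.643% and 1.61% to 1.624% in Ifngr1-KO cells. In the other groups the treatments overlapped.

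**Figure D2:**
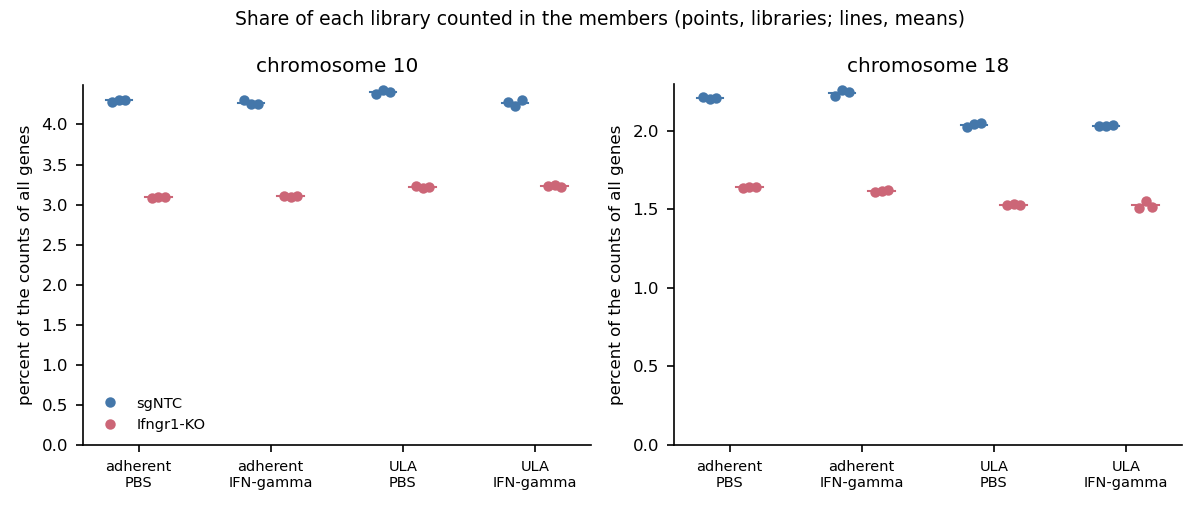
Share of all counts that fell on the genes described here of chromosome 10 and of chromosome 18, in percent, 1 point per library, by setting and line. The 12 Ifngr1-KO points lie below the 12 sgNTC points on both chromosomes, at 3.09% to 3.25% against 4.23% to 4.43% and at 1.51% to 1.64% against 2.03% to 2.26%.

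Gene by gene, 420 of 563 genes on chromosome 10 and 231 of 308 on chromosome 18 had a lower fitted level in Ifngr1-KO cells in all 4 settings, compared with 27.3% of all genes tested. Only 13 and 17 read higher in all 4, compared with 24.1% of all genes tested. The 3 libraries of each line did not overlap, with Ifngr1-KO lower, in all 4 settings for 280 genes of chromosome 10 and 166 of chromosome 18 (background 11.4%). The reverse held for 6 and 4 genes (background 8.7%).

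Single genes scattered around their chromosome's median. On chromosome 10, 21.8% of genes lay within 0.25 log2 of the median in all 4 settings, 54% within 0.5 and 84.6% within 1, and on chromosome 18 the shares were 25.6%, 59.7% and 80.2%. A band of 0.5 is about as wide as the shift itself. In all 4 settings, 19 and 9 genes lay more than 1 below the median, and 3 and 3 genes more than 1 above it. Across genes, fold changes ran together between the treatments of 1 culture, with Spearman's rho of 0.77 and 0.79 in adherent cells on chromosomes 10 and 18 and 0.87 and 0.91 in ULA cells. Between cultures rho was lower, at 0.47 and 0.58 in PBS and 0.49 and 0.57 in IFN-gamma. These are descriptions across genes of separate libraries; genes are not independent replicates, and each line supplies the cells of every setting.

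By position, the shift ran along both chromosomes. In windows of 10 Mb by gene start (GRCm38) with at least 5 genes, all 13 windows on chromosome 10 and 9 on chromosome 18 had negative medians in each setting. The window from 10 to 20 Mb of chromosome 10 (27 genes) was the least shifted of that chromosome in every setting. Its medians in PBS and IFN-gamma were -0.37 and -0.40 in adherent cells and -0.18 and -0.17 in ULA cells. In this window 51.9% of genes read lower in all 4 settings. Its neighbour from 20 to 30 Mb (27 genes) stood at -0.60, -0.77, -0.48 and -0.59 in the order of settings above, with 92.6% lower in all 4. The stretch from 30 to 40 Mb (24 genes) reached -0.84 and -0.92 in ULA cells, against -0.46 and -0.60 in adherent cells. The gene-dense window from 80 to 90 Mb (123 genes) lay close to the chromosome's median at -0.52, -0.43, -0.49 and -0.36.

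On chromosome 18 the window from 10 to 20 Mb (24 genes) had the lowest medians in adherent cells, at -0.68 in PBS and -0.77 in IFN-gamma, and 95.8% of its genes read lower in all 4 settings. The window from 30 to 40 Mb, which holds the protocadherin clusters and 94 genes of the chromosome, stood at -0.46, -0.50, -0.44 and -0.43. From 70 to 80 Mb, 62.5% of 32 genes read lower in all 4 settings, the smallest share among the windows of this chromosome with at least 5 genes. No trend ran from end to end: Spearman's rho of fold change with gene start was 0.03 to 0.06 on chromosome 10 and 0.05 to 0.14 on chromosome 18. Neighbouring genes were only weakly alike, with rho of 0.10 to 0.14 and 0.15 to 0.25 between the deviations of adjacent genes.

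**Figure D3:**
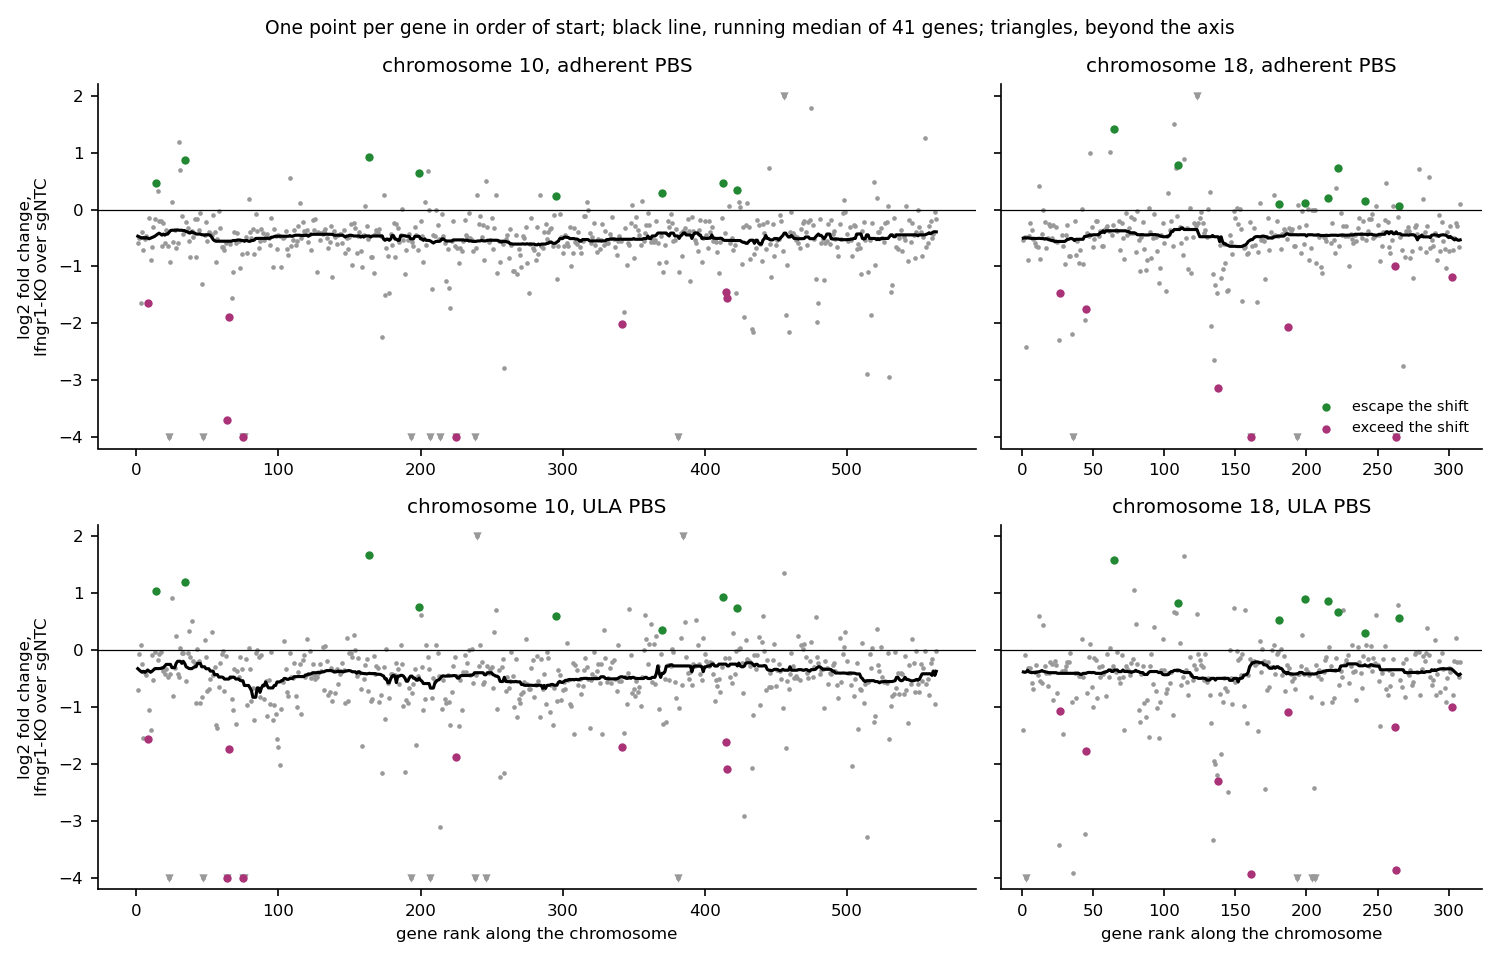
Log2 fold change of Ifngr1-KO against sgNTC for each gene in order along chromosomes 10 and 18, in adherent PBS and ULA PBS cultures, with a running median and a line at 0. Values beyond the axis are drawn at its edge. The running median stays below 0 along both chromosomes, while single genes scatter to either side.

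By expression level, the shift was present throughout, and highly expressed genes were more uniform. Genes were split on each chromosome into 3 classes of equal size by mean CPM. On chromosome 10, 66.0%, 79.7% and 78.2% of the low, middle and high class read lower in all 4 settings, and on chromosome 18, 57.3%, 78.4% and 89.3%. In adherent PBS cultures the class medians were -0.49, -0.45 and -0.54 on chromosome 10 and -0.43, -0.45 and -0.48 on chromosome 18. The interquartile range narrowed from 0.607 in the low to 0.264 in the high class on chromosome 10 and from 0.951 to 0.307 on chromosome 18; counting error is also larger at low counts. In ULA PBS cultures the chromosome 10 medians were -0.59, -0.42 and -0.35, and Spearman's rho with mean CPM was 0.21, against -0.02 in adherent PBS cultures.

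Other features of the genes are given as descriptions. Of the lincRNA genes 10 of 11 on chromosome 10 and 4 of 5 on chromosome 18 read lower in all 4 settings. Genes on the plus and minus strand of chromosome 10 did so in 72.6% and 76.6% of cases, and on chromosome 18 in 81.1% and 67.6%. None of these values was tested.

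The genes closest to the chromosome medians show what the shift looks like in a single gene. By rule, 4 per chromosome were named that had at least 20 CPM in every group and the smallest deviation over the settings. Snx3 (chr10:42502030-42535381, plus strand), a sorting nexin that works with the retromer on endosomes, had fold changes of -0.43, -0.43, -0.46 and -0.39 (SE 0.06). Snx3 read 63.4, 68.4 and 73.2 CPM in adherent Ifngr1-KO libraries with PBS, against 90.2, 93.05 and 93.3 CPM in sgNTC libraries, and 67.7, 70.4 and 72.1 against 90.5, 91.04 and 102 CPM with IFN-gamma. Snx3 read 87.05, 88.5 and 91.5 CPM in ULA Ifngr1-KO libraries with PBS, against 119, 124 and 125 CPM in sgNTC libraries, and 87.6, 91.1 and 91.8 against 116, 116 and 122 CPM with IFN-gamma. Every Ifngr1-KO library lay below every sgNTC library of its setting, and the spread within a group was small beside the gap. Zwint, a kinetochore protein, read 74.7 to 94.7 CPM in the 12 Ifngr1-KO and 107 to 119 CPM in the 12 sgNTC libraries. On chromosome 18, Etf1, the translation termination factor eRF1, had fold changes of -0.45, -0.51, -0.34 and -0.34 (SE 0.05). With PBS, adherent Ifngr1-KO libraries held 318, 323 and 324 CPM and sgNTC libraries 428, 436 and 451 CPM, and with IFN-gamma they held 317, 318 and 320.0 and 429, 456 and 474 CPM. The lines did not overlap there. Lta4h (leukotriene A4 hydrolase), Sec63 (protein translocation into the endoplasmic reticulum), Rbbp8 (the DNA end resection factor CtIP), Rps14 (a ribosomal protein) and Atg12 (an autophagy conjugation protein) lay between -0.57 and -0.33 in every setting.

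A few genes escaped the shift. By rule these are the 8 per chromosome with the largest deviation upward in the least deviating setting, among genes with at least 5 CPM in 1 group, predicted gene models left out. Fuca2 (chr10:13499540-13519035, plus strand) encodes a secreted alpha-L-fucosidase and had fold changes of 0.88, 0.83, 1.20 and 1.24 (SE 0.08). The adherent Ifngr1-KO libraries gave 36.3, 39.9 and 42.9 CPM with PBS and 35.6, 36.6 and 36.8 CPM with IFN-gamma, and the sgNTC libraries gave 20.7, 20.98 and 23.1 and 17.9, 20.9 and 22.6 CPM. With PBS, ULA Ifngr1-KO libraries held 64.2, 72.4 and 73.7 CPM and sgNTC libraries 28.4, 28.96 and 34.3 CPM, and with IFN-gamma they held 69.8, 71.2 and 73.3 and 29.4, 30.7 and 30.8 CPM. All 12 Ifngr1-KO libraries lay above all 12 sgNTC libraries, the opposite of its chromosome. Its neighbours did not share this: Ltv1, the member next to it on the lower side, stood at -0.43, -0.59, -0.05 and -0.20.

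Atp2b1 (chr10:98914406-99026143, plus strand), a plasma membrane calcium pump, was the most abundant by CPM of the chromosome 10 genes that escaped. Values of Atp2b1 in adherent cultures with PBS were 299, 326 and 339 CPM in Ifngr1-KO and 245, 255 and 255 CPM in sgNTC libraries, and with IFN-gamma 319, 327 and 339 and 239, 239.6 and 258 CPM. The ULA Ifngr1-KO libraries gave 222, 224 and 232 CPM with PBS and 214, 226 and 227 CPM with IFN-gamma, and the sgNTC libraries gave 127, 136 and 142 and 123, 128 and 130.5 CPM. Ifngr1-KO libraries were above sgNTC libraries in every setting, with fold changes of 0.35, 0.42, 0.75 and 0.81 (SE 0.05). Adamts14, a secreted protease that trims procollagen, was low in both lines, but its fold changes of 0.92, 1.55, 1.68 and 1.97 (SE 0.22 to 0.25) were the largest upward on chromosome 10 among the named genes. In ULA PBS cultures it read 5.42, 5.45 and 6.89 CPM in Ifngr1-KO against 1.69, 1.89 and 1.97 CPM in sgNTC libraries. Ulbp1, a ligand of the NKG2D receptor of natural killer cells, had fold changes of 0.47, 0.36, 1.05 and 0.80, and Tmcc3, a membrane protein of the endoplasmic reticulum, of 0.46, 0.41, 0.94 and 1.15. In ULA PBS cultures Ulbp1 read 11.4, 12.4 and 12.8 against 5.13, 5.85 and 6.80 CPM. The remaining ones were Zfp365 (0.65, 0.71, 0.75 and 0.54), Ckap4, an anchoring protein of the endoplasmic reticulum (0.29, 0.43, 0.35 and 0.40), and Adamtsl5, a matrix protein (0.24, 0.40, 0.60 and 0.56).

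On chromosome 18 the strongest escape was in Celf4 (chr18:25477632-25754157, minus strand), an RNA-binding splicing regulator, with fold changes of 1.43, 1.81, 1.59 and 2.07 (SE 0.25 to 0.30). In ULA IFN-gamma cultures it read 4.58, 5.25 and 6.07 CPM in Ifngr1-KO and 0.990, 1.21 and 1.59 CPM in sgNTC libraries. Slc26a2 (chr18:61192919-61211612, minus strand), a sulfate transporter needed for cartilage proteoglycans, was much more abundant and escaped mainly in ULA wells. Slc26a2 read 139.8, 165 and 169 CPM in adherent Ifngr1-KO libraries with PBS, against 133, 136 and 140.3 CPM in sgNTC libraries, and 149, 157 and 167 against 141, 145 and 149.5 CPM with IFN-gamma. Values of Slc26a2 in ULA cultures with PBS were 288, 289 and 291 CPM in Ifngr1-KO and 147, 165 and 167 CPM in sgNTC libraries, and with IFN-gamma 276, 292 and 295 and 162, 177 and 196 CPM. The lines overlapped or nearly met in adherent cultures and were far apart in ULA cultures. Ablim3, an actin-binding LIM protein, had fold changes of 0.74, 1.15, 0.67 and 0.59, Ecscr of 0.79, 0.52, 0.83 and 0.47 and Megf10, a receptor for engulfment of dying cells, of 0.11, 0.32, 0.90 and 1.17. Impa2, an inositol monophosphatase, stood at 0.15, 0.23, 0.30 and 0.48, Ska1, a spindle and kinetochore protein, at 0.06, 0.12, 0.56 and 0.51, and Eno1b, whose reads are uncertain because it is a near copy of Eno1, at 0.10, 0.03, 0.53 and 0.91.

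Other genes exceeded the shift. Soga3 (chr10:29143839-29199630, plus strand) had no count in any Ifngr1-KO library of 3 settings, against 649, 613 and 1099 counts summed over the 3 sgNTC libraries in adherent PBS, adherent IFN-gamma and ULA IFN-gamma cultures. Against a floor of 3 counts over the group, which takes counts as independent, it was at least 215-fold, 268-fold and 395-fold lower. In ULA PBS cultures 3 counts stood against 1405, a ratio of 347 (95% interval 119 to 1687 if counts were independent). Both mates of a pair were counted, so counts are not independent. The floor and the interval therefore understate even the counting error. sgNTC libraries held 4.90 to 9.67 CPM. Soga3 overlaps the predicted gene Gm49353, and reads were counted without strand, so part of its counts could belong to that gene. 9330159F19Rik, the next member on the same side of the chromosome, read 0 CPM in 11 of the 12 Ifngr1-KO libraries and 0.0255 CPM in the other, against 0.662 to 2.45 CPM in sgNTC libraries.

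Slc18b1 (chr10:23796986-23827968, plus strand), a vesicular polyamine transporter, had fold changes of -3.70, -3.77, -4.10 and -4.41 (SE 0.16 to 0.17). With PBS, adherent Ifngr1-KO libraries held 0.992, 1.08 and 1.09 CPM and sgNTC libraries 12.9, 14.2 and 14.3 CPM, and with IFN-gamma they held 0.832, 1.11 and 1.15 and 13.3, 14.3 and 15.03 CPM. Slc18b1 read 0.766, 0.835 and 1.30 CPM in ULA Ifngr1-KO libraries with PBS, against 14.7, 17.02 and 18.01 CPM in sgNTC libraries, and 0.833, 0.918 and 0.931 against 16.4, 20.2 and 20.4 CPM with IFN-gamma. Its level in Ifngr1-KO libraries was at or under 1.30 CPM throughout. Vnn1, a pantetheinase that starts 97.7 kb away, read 28.4 to 89.5 CPM in Ifngr1-KO and 100.5 to 346 CPM in sgNTC libraries, with fold changes of -1.89, -2.17, -1.73 and -1.85. Derl3, a protein of endoplasmic reticulum-associated degradation, depended on culture. The adherent Ifngr1-KO libraries gave 0.209, 0.282 and 0.454 CPM with PBS and 0.281, 0.318 and 0.451 CPM with IFN-gamma, and the sgNTC libraries gave 30.8, 35.6 and 36.9 and 28.8, 32.7 and 34.2 CPM. With PBS, ULA Ifngr1-KO libraries held 0.0766, 0.102 and 0.235 CPM and sgNTC libraries 0.423, 0.542 and 0.604 CPM, and with IFN-gamma they held 0, 0.119 and 0.393 and 0.173, 0.482 and 0.743 CPM. sgNTC cells held far more of it when adherent than in ULA wells, so the gap between the lines was wide in adherent cells and narrow, with values near 0 CPM, in ULA cells.

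Socs2 (chr10:95385362-95417180, minus strand), a feedback inhibitor of growth hormone and cytokine signalling, had fold changes of -1.56, -1.62, -2.09 and -1.87 (SE 0.09 to 0.10). Values of Socs2 in adherent cultures with PBS were 23.1, 24.1 and 28.5 CPM in Ifngr1-KO and 71.6, 74.9 and 76.5 CPM in sgNTC libraries, and with IFN-gamma 23.8, 24.2 and 28.3 and 65.7, 81.6 and 86.8 CPM. The ULA Ifngr1-KO libraries gave 8.63, 10.3 and 10.4 CPM with PBS and 9.66, 10.9 and 11.1 CPM with IFN-gamma, and the sgNTC libraries gave 40.03, 41.96 and 43.1 and 37.3, 37.98 and 40.7 CPM. It was low in every Ifngr1-KO library, also without IFN-gamma. Cradd, an adaptor for caspase-2 that starts 211 kb away, read 0.866 to 2.98 CPM in Ifngr1-KO and 4.48 to 8.55 CPM in sgNTC libraries. Tle2, a Groucho-family corepressor, stood at -2.01, -1.58, -1.69 and -1.77 and Ccdc170 at -1.65, -1.70, -1.56 and -1.70.

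On chromosome 18, Sh3rf2 (chr18:42053667-42158960, plus strand), a RING-finger protein with SH3 domains, had fold changes of -5.14, -5.39, -3.94 and -3.87 (SE 0.24 to 0.39). Sh3rf2 read 0.227, 0.257 and 0.261 CPM in adherent Ifngr1-KO libraries with PBS, against 8.22, 8.53 and 9.79 CPM in sgNTC libraries, and 0.0751, 0.294 and 0.300 against 8.15, 9.74 and 9.84 CPM with IFN-gamma. Values of Sh3rf2 in ULA cultures with PBS were 0.866, 1.07 and 1.36 CPM in Ifngr1-KO and 15.8, 16.7 and 17.9 CPM in sgNTC libraries, and with IFN-gamma 0.516, 1.22 and 1.84 and 15.98, 17.3 and 17.4 CPM. The lowest sgNTC library, at 8.15 CPM, was above the highest Ifngr1-KO library, at 1.84 CPM. Dsc2, the desmosomal cadherin desmocollin 2, read 13.1 to 24.9 CPM in Ifngr1-KO and 47.6 to 79.6 CPM in sgNTC libraries, with fold changes of -1.75, -1.72, -1.77 and -1.72. Gata6, a transcription factor of endoderm and mesothelium, stood at -1.47, -1.31, -1.07 and -1.10; it overlaps the transcript 1010001N08Rik. Lox, the enzyme that crosslinks collagen and elastin, had fold changes of -2.06, -1.99, -1.09 and -1.04.

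Me2, the mitochondrial malic enzyme (chr18:73770040-73815392, minus strand), was among the abundant genes that exceeded the shift. With PBS, adherent Ifngr1-KO libraries held 100.5, 109 and 110.3 CPM and sgNTC libraries 202, 213 and 218 CPM, and with IFN-gamma they held 91.9, 96.97 and 112 and 198, 204 and 230.1 CPM. Me2 read 288, 298 and 301 CPM in ULA Ifngr1-KO libraries with PBS, against 709, 773 and 786 CPM in sgNTC libraries, and 259.9, 288 and 333 against 669, 673 and 685 CPM with IFN-gamma. Its fold changes were -0.99, -1.07, -1.35 and -1.20 (SE 0.07), and the libraries of the lines did not overlap in any setting. Mro, which starts 89.3 kb away, read 0 to 1.34 CPM in Ifngr1-KO and 1.60 to 10.1 CPM in sgNTC libraries. Cyb5a, a cytochrome that passes electrons to lipid desaturases, stood at -1.19, -1.24, -1.01 and -1.04, and Pcdhb22, a protocadherin that overlaps Pcdhb21, at -3.13, -2.05, -2.30 and -2.31. Of the members, 8 on chromosome 10 and 4 on chromosome 18 had no count in at least 1 Ifngr1-KO group, and none and 3 in an sgNTC group.

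Medians of the genes next to those that escaped were below 0. Of 16 neighbours on chromosome 10, 10 read lower in all 4 settings and none higher, with medians of -0.42, -0.39, -0.23 and -0.28. On chromosome 18, 9 of 16 read lower and 1 higher, with medians of -0.33, -0.34, -0.13 and -0.19. Beside the genes that exceeded the shift, 15 of 16 and 14 of 16 neighbours read lower, with medians of -0.65, -0.69, -0.51 and -0.52 on chromosome 10 and -0.58, -0.56, -0.56 and -0.59 on chromosome 18. Over all members 74.6% on chromosome 10 and 75% on chromosome 18 read lower in all 4 settings. In each setting the medians beside escaping genes lay nearer 0 than the chromosome's own median, and those beside exceeding genes lay further below it. Some neighbours of exceeding genes are exceeding genes themselves: Slc18b1 and Vnn1, Socs2 and Cradd, and Me2 and Mro adjoin each other. Pcdhb21 also overlaps Pcdhb22, and 1010001N08Rik overlaps Gata6. The medians beside exceeding genes are therefore not independent of how those genes were chosen. The differences from the chromosome medians were not tested.

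Whether the difference between the lines changed with culture was tested, since the choice of chromosomes did not use it. The quantity is the log2 fold change between the lines in ULA wells minus that in adherent wells, so a positive value means that Ifngr1-KO cells stood relatively higher in ULA wells. In PBS, 275 of the 871 genes differed by edgeR (quasi-likelihood test, Benjamini-Hochberg adjusted), 201 positive (background 16.6%) and 74 negative (background 11.2%), or 31.6%, where the share over all genes tested was 27.8%. In IFN-gamma, 326 differed, 235 positive (background 19%) and 91 negative (background 13.3%), or 37.4% against 32.3%. Among all tested genes with 1 CPM in 3 libraries the shares were 32.7% and 37.9%, so genes of these chromosomes changed with culture about as often as others of their level. Of the calls, 73.1% and 72.1% were positive, where over all genes tested 59.6% and 58.8% of calls were.

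The median change was 0.08 on chromosome 10 and 0.07 on chromosome 18 in PBS, and 0.09 and 0.10 in IFN-gamma, compared with 0.01 and 0.00 over all genes tested. The median shift was thus nearer 0 in ULA than in adherent wells. PBS and IFN-gamma cultures share no library, and 224 genes differed in both with the same sign, 173 positive and 51 negative, which is 81.5% of the PBS calls and 68.7% of the IFN-gamma calls. This overlap was not counted over all genes tested, so it is not shown to be particular to these chromosomes. Without both libraries that stood apart 293 and 333 genes differed.

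**Figure D4:**
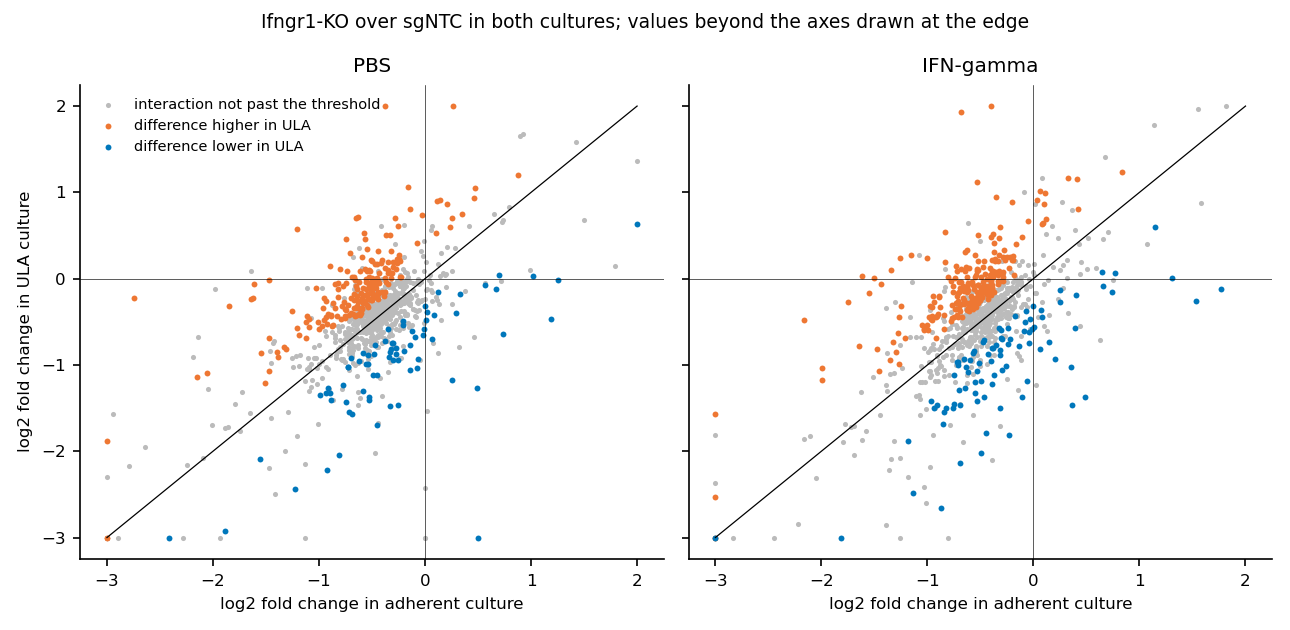
Log2 fold change of Ifngr1-KO against sgNTC in ULA (vertical) against adherent cultures (horizontal), for PBS and for IFN-gamma. Each point is 1 gene of chromosomes 10 and 18, with genes that differed between the cultures marked. Values beyond the axes are drawn at the edge. Most points lie where both values are negative, with Hmga2 below 0 in adherent and above 0 in ULA cells.

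Hmga2 (chr10:120361275-120476469, minus strand), an architectural chromatin protein of embryonic and tumour cells, had the smallest adjusted p. The adherent Ifngr1-KO libraries gave 69.8, 73.5 and 82.03 CPM with PBS and 69.8, 76.3 and 81.5 CPM with IFN-gamma, and the sgNTC libraries gave 168, 174 and 179 and 155, 172 and 181 CPM. With PBS, ULA Ifngr1-KO libraries held 47.4, 51.1 and 51.3 CPM and sgNTC libraries 31.8, 33.9 and 34.6 CPM, and with IFN-gamma they held 44.03, 47.1 and 52.8 and 37.1, 39.7 and 42.6 CPM. It read lower in Ifngr1-KO cells when adherent and higher in ULA wells, and in PBS it fell in ULA wells in both lines by edgeR. The change between cultures was 1.79 (SE 0.10, adjusted p 2.93e-15) in PBS and 1.43 (SE 0.10, adjusted p 5.04e-13) in IFN-gamma by edgeR (quasi-likelihood test, Benjamini-Hochberg adjusted).

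Other members turned in the same way. Eea1, a tether of early endosomes, averaged 202 ± 4.73 CPM (SD, n = 3) in Ifngr1-KO and 330.2 ± 3.09 CPM in sgNTC adherent PBS cultures, and 157 ± 5.51 and 128 ± 6.91 CPM in ULA PBS cultures. Its change was 1.01 (SE 0.09, adjusted p 7.87e-11) by edgeR. Stard4, a sterol carrier, averaged 86.6 ± 0.843 against 145 ± 11.5 CPM when adherent and 52.7 ± 5.04 against 38.3 ± 1.40 CPM in ULA PBS cultures. Its change was 1.20 (SE 0.11, adjusted p 3.11e-10) by edgeR. Both genes read lower in Ifngr1-KO cells on plastic and higher when detached, and so did Aig1, a hydrolase of fatty acid esters of hydroxy fatty acids, with a change of 0.89 (SE 0.09, adjusted p 2.06e-09) by edgeR.

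In other genes the gap narrowed in ULA wells. Spry4, an inhibitor of receptor tyrosine kinase signalling that is itself induced by it, averaged 12.2 ± 1.25 CPM in Ifngr1-KO and 37.2 ± 1.45 CPM in sgNTC adherent PBS cultures. In ULA PBS cultures it averaged 4.42 ± 0.382 and 4.63 ± 0.484 CPM. The change was 1.55 (SE 0.15, adjusted p 5.38e-10) in PBS and 1.45 (SE 0.14, adjusted p 1.21e-09) in IFN-gamma by edgeR. Nab2, a corepressor of EGR1, averaged 13.7 ± 2.61 against 49.1 ± 0.589 CPM when adherent and 33.8 ± 1.86 against 41.9 ± 5.80 CPM in ULA PBS cultures, a change of 1.53 (SE 0.15, adjusted p 4.72e-09) by edgeR. Nab2 overlaps Stat6, and reads of the pair cannot be told apart by strand. Gnptab, which makes the mannose 6-phosphate tag of lysosomal enzymes, kept a gap in ULA wells, with fold changes of -1.26, -1.27, -0.38 and -0.45, and changed by 0.88 (SE 0.09, adjusted p 7.35e-10) by edgeR. Nars, the asparaginyl-tRNA synthetase, had fold changes of -0.52, -0.55, 0.08 and 0.27, below 0 in adherent and above 0 in ULA wells. Its difference between the lines changed by 0.60 (SE 0.08, adjusted p 1.33e-07) in PBS and 0.82 (SE 0.08, adjusted p 1.78e-10) in IFN-gamma.

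Rev3l and Cirbp went the other way. Rev3l, the catalytic subunit of DNA polymerase zeta, which copies past damaged bases, read as follows. Values of Rev3l in adherent cultures with PBS were 48.6, 60.8 and 61.7 CPM in Ifngr1-KO and 69.6, 81.96 and 82.2 CPM in sgNTC libraries, and with IFN-gamma 51.4, 53.9 and 61.1 and 76.4, 78.5 and 78.9 CPM. The ULA Ifngr1-KO libraries gave 53.9, 54.8 and 62.6 CPM with PBS and 51.6, 52.9 and 54.98 CPM with IFN-gamma, and the sgNTC libraries gave 166, 193 and 197 and 200.2, 216 and 228 CPM. In PBS it rose in ULA wells in sgNTC cells, while in Ifngr1-KO cells its log2 fold change between cultures was 0.00 (adjusted p 0.994, edgeR). The change of the difference between the lines was -1.25 (SE 0.12, adjusted p 7.28e-09) in PBS and -1.52 (SE 0.12, adjusted p 1.54e-10) in IFN-gamma by edgeR (quasi-likelihood test, Benjamini-Hochberg adjusted). Cirbp, a cold-inducible RNA-binding protein, averaged 15.2 ± 1.52 CPM in Ifngr1-KO and 12.7 ± 1.13 CPM in sgNTC adherent PBS cultures, and 16.9 ± 1.90 and 38.1 ± 2.35 CPM in ULA PBS cultures. Its change was -1.43 (SE 0.13, adjusted p 2.06e-10) by edgeR.

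Culture itself changed most of these genes, about as often as other genes of their level. In sgNTC PBS cultures 282 rose (background 32.5%) and 353 fell (background 32.1%) in ULA against adherent wells by edgeR, which is 72.9% of the 871, where the share was 64.6% over all genes tested and 73.1% over those with 1 CPM in 3 libraries. In Ifngr1-KO PBS cultures 280 rose (background 29.6%) and 305 fell (background 31.1%), or 67.2%, against 60.7% and 69.3%; with DESeq2 size factors 298 rose and 288 fell, so neither direction prevailed. Genes with the smallest adjusted p in sgNTC and in Ifngr1-KO cells were named. Nars fell by 1.94 (SE 0.05, adjusted p 9.42e-26) on the log2 scale, Lars, the leucyl-tRNA synthetase, by 1.92 (SE 0.05, adjusted p 1.34e-25) and Xpot, the tRNA exporter, by 1.80 (SE 0.05, adjusted p 6.23e-25), all by edgeR. In the same cells Slc27a6, a fatty acid transporter, had a log2 change of -1.84 (SE 0.05, adjusted p 2.77e-25) and Ddx21, an RNA helicase of the nucleolus, of -1.50 (SE 0.05, adjusted p 3.52e-24) by edgeR. In Ifngr1-KO cells Synpo, an actin-associated protein, rose by 3.05 (SE 0.09, adjusted p 1.42e-24), Tspan8, a tetraspanin, by 2.39 (SE 0.07, adjusted p 3.96e-25) and Apcdd1, an inhibitor of Wnt signalling, by 2.32 (SE 0.09, adjusted p 8.82e-22) by edgeR. Nap1l1, a histone chaperone, had a log2 change of -1.18 (SE 0.05, adjusted p 1.11e-21) there by edgeR.

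Interferon-gamma changed few of these genes in sgNTC cells, and in adherent wells only Chpt1, which makes phosphatidylcholine. The 10 genes set aside by name, among them Stat2, Cd74, Iigp1 and Ptpn2, are not in these counts. Few of all genes tested changed either, at 0.315% in adherent and 2.05% in ULA wells by edgeR. Chpt1 in adherent sgNTC cells read 31.4, 33.5 and 36.2 CPM in PBS and 39.2, 43.4 and 47.4 CPM in IFN-gamma libraries, a log2 change of 0.36 (SE 0.08, adjusted p 0.0296) by edgeR (quasi-likelihood test, Benjamini-Hochberg adjusted), where 0.315% of all genes tested were called. That call was lost when any 1 of 4 libraries was left out (replicates 2 and 3 of adherent sgNTC IFN-gamma and replicates 1 and 2 of adherent sgNTC PBS), with adjusted p of 0.121 to 0.315 by edgeR.

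In ULA sgNTC cells 6 of the 871 genes rose (background 1.31%) and 9 fell (background 0.739%) under IFN-gamma by edgeR, where 2.05% of all genes tested were called. Hk1, a hexokinase, read 755, 907 and 978 CPM in PBS and 531, 645 and 714 CPM in IFN-gamma libraries, a log2 change of -0.48 (SE 0.09, adjusted p 0.00608) by edgeR. Pfkl, the liver-type phosphofructokinase, read 501, 519.5 and 578 against 323, 414 and 432 CPM, a change of -0.45 (SE 0.08, adjusted p 7.70e-04) by edgeR. Mthfd1l, the mitochondrial formyltetrahydrofolate synthetase, changed by -0.44 (SE 0.08, adjusted p 5.47e-04) and P4ha1, a collagen prolyl hydroxylase, by -0.34 (SE 0.07, adjusted p 0.00596), also by edgeR. These 4 calls were lost in a fit of the ULA sgNTC libraries alone, with adjusted p of 0.145 to 0.236, and that of P4ha1 also without ULA sgNTC IFN-gamma replicate 2 (adjusted p 0.0632, edgeR) or ULA sgNTC PBS replicate 2 (adjusted p 0.0593, edgeR). The number of calls was 30 without both Ifngr1-KO libraries that stood apart, 8 without ULA sgNTC IFN-gamma replicate 2 and 7 without ULA sgNTC PBS replicate 2.

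Impact, an imprinted inhibitor of the GCN2 kinase, rose, from 129, 132 and 135 to 153, 156 and 163 CPM, with a log2 change of 0.26 (SE 0.06, adjusted p 0.0150) by edgeR. The call was lost without ULA sgNTC IFN-gamma replicate 1, PBS replicate 2 or PBS replicate 3. F830016B08Rik, Gm4841 and Gm4951 are also among the 6, but each reached 1 CPM in only 3 libraries, those of ULA sgNTC cells with IFN-gamma. They had to be high there to be counted at all, so their values are a description. F830016B08Rik read 0, 0.0302 and 0.241 CPM in PBS and 1.10, 5.08 and 6.58 CPM in IFN-gamma ULA sgNTC libraries, with no count in Ifngr1-KO libraries of any setting. Gm4841 read 0.0302, 0.0401 and 0.121 and 1.05, 7.85 and 13.4 CPM. Gm4951 read 0.151, 0.217 and 0.401 and 1.95, 3.44 and 6.03 CPM.

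How far the response to IFN-gamma differed between the lines was tested as well. In adherent wells none of the 871 genes differed by edgeR, where 0.13% of all genes tested were called. An unadjusted p under 0.05 by edgeR was reached by 96 of the 871. The number was 1497 among all 12190 genes with 1 CPM in 3 libraries. DESeq2 called 6 of the 871, and its share over all genes was not counted. In ULA wells 10 differed, 7 positive and 3 negative, where 1.33% of all genes tested were called. A positive value means a higher response in Ifngr1-KO cells. Eef2, the elongation factor that moves the ribosome along, differed by 0.32 (SE 0.07, adjusted p 0.00985), Mbd3, a subunit of the NuRD complex, by 0.40 (SE 0.09, adjusted p 0.0175) and Mthfd1l by 0.48 (SE 0.11, adjusted p 0.0193), all by edgeR. Pfkl differed by 0.47 (SE 0.11, adjusted p 0.0269), Chchd10, a mitochondrial protein, by 0.37 (SE 0.09, adjusted p 0.0268) and Impact by -0.36 (SE 0.09, adjusted p 0.0268), also by edgeR. Apba3, Atp5a1, Onecut2 and Eya4 made up the 10, at 0.44, 0.27, -0.41 and -0.30.

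These differences use the same ULA sgNTC libraries as the response above. For Eef2 the ULA sgNTC libraries read 2244, 2275 and 2290.0 CPM in PBS and 1962, 1977 and 2079 CPM in IFN-gamma, and the ULA Ifngr1-KO libraries 1447, 1524 and 1590.0 and 1654, 1673 and 1690.0 CPM. The treatments did not overlap in either line, with IFN-gamma below PBS in sgNTC and above it in Ifngr1-KO cells. The number of calls ran from 1 to 17 when 1 library was left out: 1 without ULA sgNTC PBS replicate 2, 2 without ULA Ifngr1-KO PBS replicate 1, 4 without ULA sgNTC PBS replicate 3, 5 without ULA Ifngr1-KO IFN-gamma replicate 1, 6 without ULA Ifngr1-KO PBS replicate 2 or ULA sgNTC IFN-gamma replicate 3, and 17 without ULA Ifngr1-KO IFN-gamma replicate 2, which stood apart. It was 24 without both libraries that stood apart. Among the genes named, Impact lost its call in 8 of these fits, Chchd10 in 6, Pfkl in 4, Mbd3 in 3 and Mthfd1l in 1.

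By function, the median of every list of genes on these chromosomes was below 0 in each setting. The 12 lists hold 221 members, and no list was tested against another. Of all tested genes 27.3% read lower in all 4 settings, but 74.6% of the members on chromosome 10 and 75% on chromosome 18 did. The list counts should be read beside these member shares. Changes between cultures were positive for 23.1% and negative for 8.50% of the 871 members in PBS, and for 27.0% and 10.45% in IFN-gamma. Medians below are in the order adherent PBS, adherent IFN-gamma, ULA PBS and ULA IFN-gamma.

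Of 15 translation genes, 12 read lower in all 4 settings, with medians of -0.39, -0.56, -0.16 and -0.27. Eef2 stood at -0.69, -0.54, -0.58 and -0.26, and the ribosomal proteins Rps15 at -0.39, -0.57, -0.14 and -0.32 and Rpl17 at -0.37, -0.57, -0.16 and -0.22. Between cultures 6 of the 15 had a positive change in PBS (background 16.6%) and 9 in IFN-gamma (background 19%) by edgeR, and none a negative one (11.2% and 13.3%). In sgNTC PBS cultures 14 fell (background 32.1%) and 1 rose (background 32.5%) in ULA wells by edgeR. Of 21 RNA processing genes 17 read lower, with medians of -0.44, -0.47, -0.41 and -0.29. Ddx21 stood at -0.83, -0.77, -0.43 and -0.30 and Ptbp1, a splicing repressor that overlaps Plppr3, at -0.44, -0.41, -0.15 and -0.08.

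Of 25 chromatin genes 23 read lower, with medians of -0.56, -0.45, -0.49 and -0.51. Smarcc2, a core subunit of the BAF remodelling complex, stood at -0.48, -0.24, -0.77 and -0.76, and Mbd3 at -0.64, -0.39, -0.34 and 0.05. Wac, an adaptor of histone H2B ubiquitination, stood at -0.68, -0.69, -0.41 and -0.38. Of 24 cell cycle genes 12 read lower and 2 higher, with medians of -0.42, -0.41, -0.13 and -0.17. Cdk4, the kinase partner of D cyclins, which overlaps Tspan31, stood at -0.55, -0.52, -0.41 and -0.25. Haus1, a subunit of the augmin complex of the spindle, stood at 0.19, 0.44, -0.09 and 0.05. Between cultures 7 genes of this list had a positive (background 16.6%) and 1 a negative change (background 11.2%) in PBS by edgeR.

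Of 22 mitochondrial genes 16 read lower, with medians of -0.39, -0.43, -0.27 and -0.25. Atp5b, the catalytic subunit of ATP synthase, was at -0.32, -0.27, 0.06 and 0.22, and Hspa9, the mitochondrial HSP70 chaperone, at -0.24, -0.28, 0.20 and 0.33. In adherent PBS cultures Hspa9 read 1361, 1382 and 1384 CPM in Ifngr1-KO against 1603, 1628 and 1646 CPM in sgNTC libraries, and in ULA PBS cultures 832, 838 and 841 against 664, 760.1 and 762 CPM. The lines changed places between cultures, a change of 0.44 (SE 0.08, adjusted p 5.83e-05) by edgeR. Of 16 metabolic genes 11 read lower and 1 higher, with medians of -0.51, -0.53, -0.46 and -0.25. Hk1 stood at -0.67, -0.38, 0.02 and 0.52 and Oaz1, the antizyme that limits polyamine synthesis, at -0.77, -0.57, -0.76 and -0.43.

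Matrix and adhesion genes had the lowest median in adherent PBS, at -0.85, followed by -0.71, -0.48 and -0.33, and 12 of 15 read lower. Cdh2, N-cadherin, stood at -0.95, -0.89, -0.48 and -0.21, Bsg, the surface glycoprotein basigin, at -0.85, -0.71, -0.66 and -0.33 and Ctnna1, the link of cadherins to actin, at -0.59, -0.55, -0.35 and -0.26. Of 27 receptors and signalling genes 23 read lower and 1 higher, with medians of -0.64, -0.65, -0.42 and -0.35. Lrp1, an endocytic receptor, stood at -1.10, -0.69, -0.56 and -0.30 and Smad4, the shared mediator of TGF-beta signals, at -0.53, -0.57, -0.42 and -0.35. Sgk1, a kinase induced by serum and glucocorticoids, stood at -0.53, -0.53, -1.38 and -1.41. Values of Sgk1 in ULA cultures with PBS were 374, 389 and 424 CPM in Ifngr1-KO and 969, 1020.0 and 1093 CPM in sgNTC libraries, and with IFN-gamma 332, 358 and 423 and 942, 999.8 and 1025 CPM. Its gap was larger in ULA wells, with a change of -0.85 (SE 0.14, adjusted p 1.02e-04) in PBS by edgeR. By edgeR 12 of the 27 had a positive change between cultures in PBS (background 16.6%) and 4 a negative one (background 11.2%).

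Of 17 immune genes 11 read lower and 2 higher, with medians of -0.45, -0.48, -0.19 and -0.36. Mif, a secreted cytokine, stood at -0.64, -0.73, -0.12 and -0.20, Stat6, the transcription factor of interleukin-4 signalling, which overlaps Nab2, at -0.53, -0.48, -0.07 and 0.14, and Tmem173, the adaptor STING, at -0.30, -0.38, 0.13 and 0.03. Of 18 p53 and stress genes 13 read lower, with medians of -0.45, -0.50, -0.47 and -0.36. Perp, a p53 target of desmosomes, stood at -0.45, -0.47, 0.18 and 0.21 and Egr1, an immediate early transcription factor, at -1.03, -0.85, -0.91 and -1.54. The gap of Perp changed with culture in PBS by 0.63 (SE 0.08, adjusted p 2.14e-07) by edgeR, while for Egr1 the change was 0.12 (adjusted p 0.755, edgeR). Gpx4, which repairs oxidised lipids, stood at -0.14, -0.27, -0.31 and -0.17 and Epg5, an autophagy tether, at -0.74, -0.75, -0.05 and -0.08. Of 20 lysosome and secretory pathway genes 18 read lower and 1 higher, with medians of -0.48, -0.50, -0.42 and -0.44. Psap, the precursor of the saposins, stood at -0.45, -0.35, -0.50 and -0.48 and Kif5b, a kinesin, at -0.66, -0.69, -0.44 and -0.30. Impact was the 1 imprinted gene found, at -0.80, -1.02, -0.83 and -1.19, a larger gap than the chromosome 18 median in every setting.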

How the data were processed

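Messenger RNA was measured in 24 libraries, 3 in each of 8 groups. The authors deposited raw counts per gene, in a separate table for each library. featureCounts v2.1.1 counted exons in paired-end mode, unstranded and without multi-mapping reads, per the file headers. Pairs were not merged, so both mates of a pair are counted. Per the submitters' processing notes, reads were processed with Trimmomatic, HISAT2, SAMtools and featureCounts (Subread 2.1.1) on GRCm38 (mm10), and DESeq2 was used. The sources used here give no other versions. Near-identical copies and overlapping genes are therefore less certain.

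Genes that passed filterByExpr (minimum count 10) numbered 14622 and held at least 99.97% of each library's counts, and all 871 genes described were among them. The edgeR 4.0.16 quasi-likelihood model under R 4.3.3 had 1 mean per group, TMM factors of 0.958 to 1.054, robust dispersion and 16 residual degrees of freedom. P-values are two-sided and adjusted over all 14622 genes (Benjamini-Hochberg) for each comparison, and a gene is called under 0.05. They measure the spread between the labelled biological replicates. CPM values use TMM-adjusted library sizes, except for membership and its edge, where CPM uses raw totals. The fit was tested on simulated data. Ratios of single libraries use a pseudocount of 0.5 CPM. Totals of 33494774 to 63154942 counts set the precision. Floors and intervals concern counting error only, and understate it because they take the 2 mates of a pair as independent. Positions and strands are those given with the deposited counts, gene types are from GENCODE M21, and promoter windows are from RefSeq. Python 3.11.15 with pandas 2.3.3 and matplotlib 3.10.9 summarised the fits.

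Members, gene lists and tests were chosen with earlier results of these data known, so no list is independent support. Gene lists held 246 entries, of which 221 were found among the members. Named genes follow rules: 8 per chromosome that escaped and 8 that exceeded the shift, 4 near the median, up to 2 per list and chromosome by counts per kilobase, up to 6 called genes with the smallest adjusted p per tested comparison, and genes at the edge of membership. Genes named outside these rules (9330159F19Rik, Ltv1, and the remaining calls under IFN-gamma) were chosen after their values were seen. Alternatives were DESeq2 1.42.0, other scaling, no filter, a replicate block, only the groups compared, other membership, and leaving out libraries. Protein-coding genes alone and leaving out both libraries that stood apart were added after seeing the data. Genes outside these chromosomes were used only for scaling, dispersion and background shares.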

Additional observations from a re-analysis of the deposited data

Results flagged for a closer look

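The following genes differed in the same contrast between cultures or treatments by edgeR (quasi-likelihood test of the difference itself, Benjamini-Hochberg adjusted). Values are on the log2 scale, as the difference between the lines in ULA wells minus that in adherent wells in PBS cultures. Genes that escaped or exceeded the shift were picked by the same fold changes from which this change is taken. Their values are therefore a description, and only those called are listed. Of all members called in PBS, 73.1% had a positive change. Among genes that escaped the shift, the change was Fuca2 0.32, Tmcc3 0.47, Atp2b1 0.39, Ulbp1 0.57, Adamtsl5 0.37, Slc26a2 0.65, Megf10 0.79 and Eno1b 0.43, so each stood further above sgNTC in ULA wells. Among genes that exceeded it, the change was Derl3 4.85, Sh3rf2 1.21, Lox 0.97 and Gata6 0.40, a smaller gap in ULA wells, and Socs2 -0.54 and Me2 -0.36, a larger gap. The value of Derl3 rests on low levels in ULA wells in both lines, and its SE is 0.78.

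Genes chosen for their change with culture gave Hmga2 1.79, Spry4 1.55, Nab2 1.53, Stard4 1.20, Eea1 1.01, Aig1 0.89, Gnptab 0.88 and Nars 0.60 in PBS, and in the other direction Cirbp -1.43 and Rev3l -1.25. In IFN-gamma cultures the values were Hmga2 1.43, Spry4 1.45, Nab2 1.64, Aig1 0.96 and Nars 0.82, and -1.525 for Rev3l. Genes first named for culture or treatment gave Apcdd1 0.99, Hk1 0.69, Synpo 0.50, Slc27a6 0.45, Lars 0.44, Mthfd1l 0.43, Tspan8 0.42, Ddx21 0.41, Pfkl 0.33, Mbd3 0.29, Xpot 0.23 and Nap1l1 0.21, and -0.49 for Chpt1, in PBS.

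The response to IFN-gamma differed between the lines in ULA wells, taking sgNTC from Ifngr1-KO, for Mthfd1l 0.48, Pfkl 0.47, Mbd3 0.40, Chchd10 0.37, Eef2 0.32 and Impact -0.36. Of these, Eef2 alone kept its call with any 1 library left out.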

How the results depend on the processing

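No median changed sign under any alternative run. Neither did any fold change of a named gene that was called in the main fit. For named fold changes not called in the main fit, a change of sign was not counted. The balance of members called in ULA against adherent Ifngr1-KO PBS cultures did turn. It went from 280 higher and 305 lower to 298 and 288 with DESeq2 size factors and 301 and 292 by DESeq2. Of 4801 values of 361 named genes and comparisons, 4453 stayed the same, 311 moved and 37 lost their call. Fold changes between the lines counted as the same if they moved by less than their SE. Tested comparisons did so if the call was kept or no adjusted p was available. Without a filter on low counts the medians on chromosome 10 were -0.48, -0.46, -0.39 and -0.34 (adherent PBS, adherent IFN-gamma, ULA PBS and ULA IFN-gamma) and on chromosome 18 -0.44, -0.35 and -0.31 (adherent PBS, ULA PBS and ULA IFN-gamma). On chromosome 10 the adherent IFN-gamma median was -0.50 with TMM factors from genes outside both chromosomes and -0.47 with only the groups compared, the ULA PBS median was -0.41 with DESeq2 size factors and -0.41 with membership at 10 CPM, and the ULA IFN-gamma median was -0.35 with membership at 10 CPM; the cause was not tested. Genes reading lower in all 4 settings numbered 402 to 424 on chromosome 10 and 219 to 236 on chromosome 18 over the scalings, filters and tools.

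With 1 library left out, the medians on chromosome 10 ran from -0.50 to -0.48 (lowest and highest: -0.497 and -0.475), -0.480 to -0.471, -0.396 to -0.366 and -0.394 to -0.341 in the order above, and those on chromosome 18 from -0.451 to -0.432, -0.52 to -0.48, -0.353 to -0.318 and -0.372 to -0.318. With all libraries the chromosome 10 medians were -0.5022, -0.4844, -0.4235 and -0.3976, each below its range. Leaving out any library of a setting thus moved them nearer 0. The same held on chromosome 18 in PBS, at -0.46 in adherent and -0.3805 in ULA cultures. In IFN-gamma its medians of -0.5095 and -0.3657 lay within the ranges. The cause of this offset was not tested.

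Members whose response to IFN-gamma differed between the lines in adherent wells (0) numbered 1 with DESeq2 size factors, 1 with TMM from genes outside both chromosomes, 1 with only the groups compared, 7 without a filter, 2 without both libraries that stood apart, 6 by DESeq2, and 0 to 1 with 1 library left out. In ULA wells (10) they numbered 30 without a filter, 24 without both libraries, 29 by DESeq2 and 1 to 17 with 1 library left out. Members called for IFN-gamma in adherent sgNTC cells (1) numbered 13 without a filter, 4 with only the groups compared, 2 without both libraries, 2 by DESeq2 and 0 to 2 with 1 library left out. In ULA sgNTC cells (15) they numbered 41, 30 and 26 without a filter, without both libraries and by DESeq2, and 7 to 19 with 1 library left out. The counts for culture and for its interaction with the line stayed within 1.5 times under each of these, and the interaction of line and culture gave 251 to 283 calls in PBS and 296 to 334 in IFN-gamma with 1 library left out.

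Replicate numbers did not pair the libraries: 1 of 28 pairs of groups had all 3 correlations over 0.1. With the replicate number as a block, 275 and 327 members differed for line and culture in PBS and IFN-gamma, 1 and 10 for line and IFN-gamma in adherent and ULA wells, and 2 and 14 under IFN-gamma in adherent and ULA sgNTC cells. Counts that rest on few calls near the threshold are limited by 3 libraries per group, and low genes by their counts.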
